A study of Homo sapiens with 12 samples.

Results

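NF-kB is a family of dimeric transcription factors held in the cytoplasm by inhibitor proteins of the I-kB family and released when receptors for cytokines or microbial products activate the IKK kinases. Released dimers enter the nucleus, bind kappa-B sites and switch on, among other genes, their own inhibitors, so that a burst of activity is followed by its own shutdown. The C-terminal subunit of the mucin MUC1 (MUC1-C) is known to bind RELA, the main transactivating subunit, in epithelial cancer cells.

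The 10 genes described here are the 5 subunit genes NFKB1, NFKB2, REL, RELA and RELB, the inhibitors and feedback regulators NFKBIA, NFKBIE and TNFAIP3, and the target genes BIRC3 and ICAM1. They were chosen by symbol, and all 10 were found among the 28008 genes of each count table. RNA-seq was performed on QGP-1 and on BON-1 cells, both pNET lines, that is, human cell lines established from neuroendocrine tumors of the pancreas. Cells of every group, vehicle included, carried tet-MUC1shRNA, a hairpin against MUC1 that doxycycline (DOX) induces from the puromycin-selected pLKO-tet-puro vector. They were treated with vehicle (0.1% DMSO) or with 500 ng/mL DOX for 7 days, giving 4 groups of 3 libraries and 12 libraries in all, which the study describes as biologic triplicates. No library with a control hairpin was used here, so that an effect of DOX itself or of expressing a hairpin cannot be told apart from one of MUC1 loss. The lines were grown in different media, so that line, medium and sequencing depth cannot be told apart either.

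Depth ran from 38224144 to 50525926 counts among the QGP-1 libraries and from 15981954 to 28484324 among the BON-1 libraries. Of 15 neuroendocrine markers, 14 reached a mean of 1 CPM in QGP-1 and 13 in BON-1 cells, whereas NEUROD1 had no count in QGP-1 and ISL1 none in BON-1 cells. The summed level of these markers moved with DOX, from 6960–7841 to 7910–8610 CPM in QGP-1 and from 12827–16419 to 10645–11117 CPM in BON-1 cells. The summed level of 15 immune and stromal markers moved from 13.8–17.1 to 19.1–23.2 CPM in QGP-1 and from 32.9–36.2 to 63.9–71.3 CPM in BON-1 cells, while the leukocyte markers PTPRC and CD3E were at group means of at most 0.0856 CPM. Of the immune and stromal markers, LYZ was called higher with DOX in QGP-1 cells (11 ± 0.899 to 17.1 ± 1.75 CPM). CD68 (25.3 ± 1.41 to 50.6 ± 2.04 CPM) and LUM (5.18 ± 0.735 to 10.5 ± 0.530 CPM) were called higher in BON-1 cells (SD, n = 3). COL1A1 was called lower in QGP-1 cells, from 2.49 ± 0.734 to 1.11 ± 0.139 CPM. Of the neuroendocrine markers tested, 1 of 14 was lower and 6 higher in QGP-1 cells, and 4 of 13 lower and 3 higher in BON-1 cells. Over all genes tested, 17.7% were lower and 17.3% higher in QGP-1, and 18.3% and 17.0% in BON-1 cells. The median log2 fold change of the neuroendocrine markers was 0.20 in QGP-1 and -0.05 in BON-1 cells. They ranged from -0.51 (NCAM1) to 0.63 (PCSK1N) in QGP-1 and from -1.46 (CHGA) to 0.92 (PCSK1N) in BON-1 cells. The part of either shift in the results below was not tested. In bulk RNA, fewer cells that express a gene and less of its RNA per cell cannot be told apart.

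MUC1 was checked first. Its level in CPM, read counts scaled to library size with TMM factors set within each line, was 7.19, 5.81 and 5.65 in the vehicle libraries and 0.705, 1.04 and 0.744 in the DOX libraries of QGP-1 cells. In BON-1 cells it was 20.6, 20.7 and 15.6 with vehicle and 1.48, 2.65 and 3.97 with DOX. The groups stood apart in both lines, and the log2 fold change was -2.91 (SE 0.226, adjusted p = 8.24e-07, edgeR's quasi-likelihood test with Benjamini-Hochberg adjustment over all genes tested) in QGP-1 and -2.79 (SE 0.218, adjusted p = 6.51e-11) in BON-1 cells. A gene is called here at an adjusted p below 0.05 in this test, with no minimum fold change.

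Because NF-kB genes are themselves NF-kB targets, the available promoters of the 10 genes were read for kappa-B motifs. RefSeq promoters of GRCh38.p14, which run from 250 bases before to 50 bases after a start site, were at hand for 8 of the 10 genes and numbered 12 in all. There was no entry for RELB and NFKBIE. The 10-base kappa-B consensus was found on either strand in 7 of these promoters, belonging to REL, NFKB1, NFKB2, NFKBIA, TNFAIP3 and BIRC3, against 3956 of all 35116 promoters (11.3%). The windows below lie before every annotated start of the gene, except that of REL, which is held to 30 bases because GENCODE starts the gene at chr2:60881491. The window of RELA lies before its outermost RefSeq start, while GENCODE starts RELA at chr11:65663090, inside its other RefSeq promoter. They are read 5′ to 3′ along the gene, capitals mark matches on either strand, and overlapping matches run together.
REL, chr2:60881518-60881547, plus strand: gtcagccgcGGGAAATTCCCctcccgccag
NFKB1, chr4:102501210-102501329, plus strand: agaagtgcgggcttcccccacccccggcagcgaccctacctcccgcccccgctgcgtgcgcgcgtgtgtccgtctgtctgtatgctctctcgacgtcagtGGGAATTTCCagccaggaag
NFKBIA, chr14:35404750-35404869, minus strand: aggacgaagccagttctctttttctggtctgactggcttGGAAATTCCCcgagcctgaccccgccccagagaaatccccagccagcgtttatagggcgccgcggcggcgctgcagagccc
TNFAIP3, chr6:137867094-137867213, plus strand: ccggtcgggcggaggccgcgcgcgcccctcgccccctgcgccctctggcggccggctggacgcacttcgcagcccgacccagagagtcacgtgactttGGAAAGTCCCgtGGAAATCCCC
BIRC3, chr11:102317270-102317389, plus strand: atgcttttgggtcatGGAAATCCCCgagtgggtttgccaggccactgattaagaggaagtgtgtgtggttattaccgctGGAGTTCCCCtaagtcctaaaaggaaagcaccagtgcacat
RELA, chr11:65663858-65663977, minus strand: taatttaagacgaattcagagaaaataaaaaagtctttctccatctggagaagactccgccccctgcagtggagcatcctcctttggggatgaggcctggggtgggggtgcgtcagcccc

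The match nearest to the RefSeq start site began 46 bases before it in REL, 49 in NFKB1, 81 in NFKBIA, 55 in TNFAIP3 and 135 in BIRC3. In REL, 2 matches on opposite strands overlapped by all but 1 base, and in TNFAIP3 the matches on the opposite strand were separated by 2 bases. Neither promoter of RELA held a match, nor did that of ICAM1, and RELA is printed as an example. NFKB2 is not printed, although those of its promoters with any match held 4 and 3, counted on both strands. NFKB2 and TNFAIP3, which both hold matches, were not called with DOX in either line. The windows printed leave out NFKB2 and ICAM1, and a link of matches to the DOX response was not tested. A match is a description of the letters only, and its absence says only that these letters are not in this window.

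In QGP-1 cells, REL, NFKB1 and NFKBIA were higher with DOX and no member was called lower. These were 3 of 10 genes higher, where 17.3% of the 15089 genes tested were, and 0 of 10 lower, where 17.7% were. By an unadjusted p below 0.05 in edgeR, 2 members were lower (RELA and ICAM1), and DESeq2 also called 0 lower at the adjusted threshold. In BON-1 cells, REL and BIRC3 were higher and RELA was lower, that is 2 of 10 genes higher, where 17.0% of the 14625 genes tested were, and 1 of 10 lower, where 18.3% were. With about 35.0% of all genes called in QGP-1 and 35.3% in BON-1 cells, 3 called members in each line are close to the share of all genes. The median log2 fold change of the 10 genes was 0.15 in QGP-1 and 0.09 in BON-1 cells, against -0.01 over all genes in each line.

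**Figure D1:**
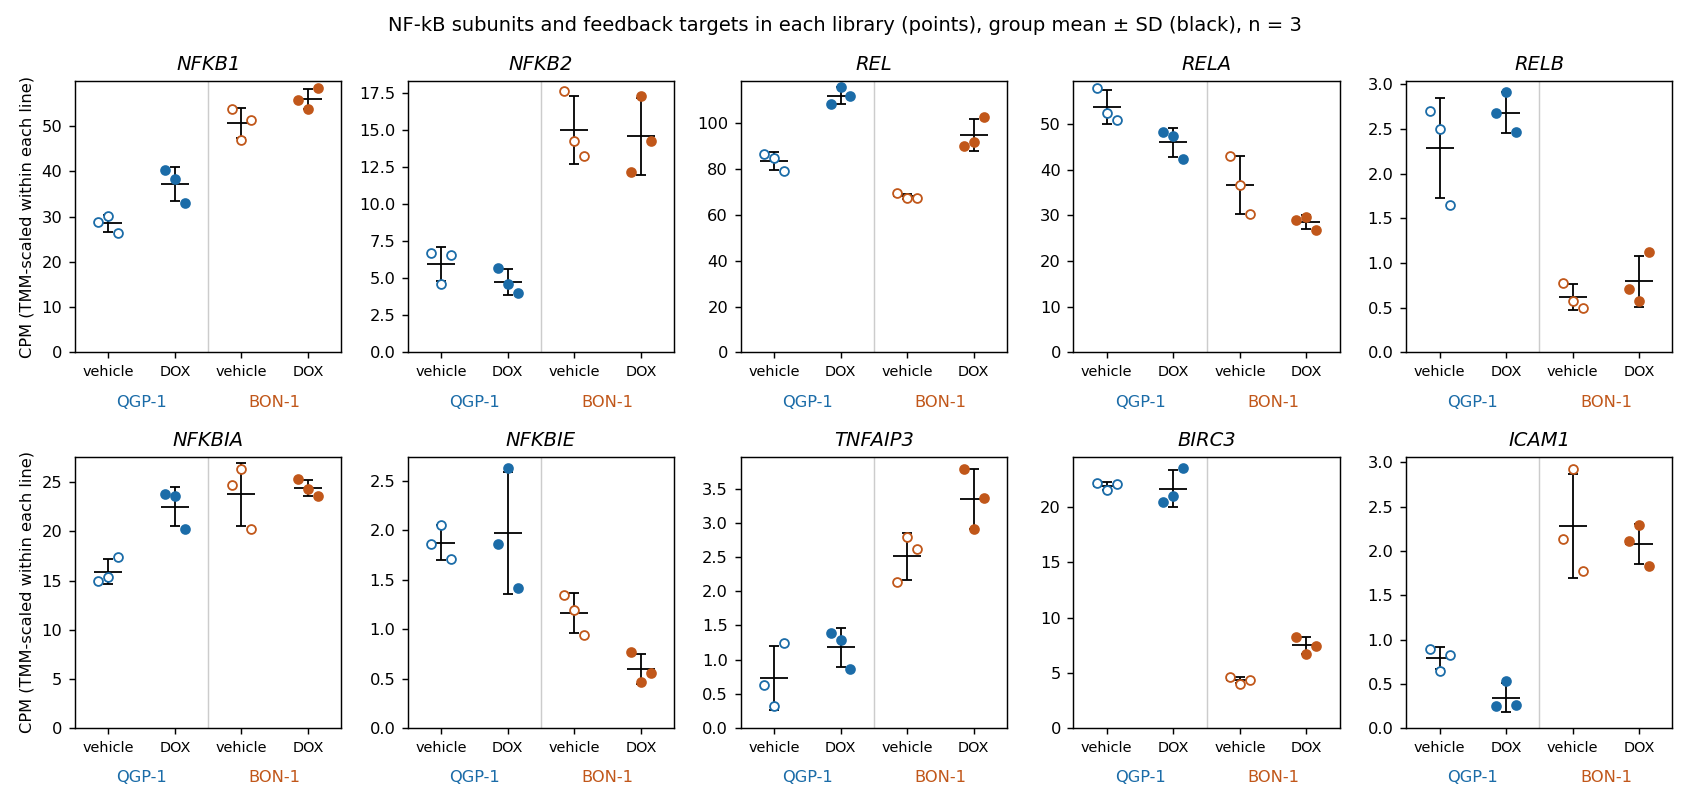
Level of each of the 10 genes in CPM (vertical axes from 0, scaled by TMM within each line) in the 3 libraries of each group. Open points are vehicle and filled points DOX libraries, and black marks give the mean ± SD. REL and NFKB1 (higher with DOX) and RELA (lower) stand apart between vehicle and DOX in both lines. NFKBIA (higher) and ICAM1 (lower) do so in QGP-1 only, and BIRC3, TNFAIP3 (both higher) and NFKBIE (lower) in BON-1 only. Of these, RELA and ICAM1 in QGP-1 cells and NFKB1, TNFAIP3 and NFKBIE in BON-1 cells were not called. The share of all genes whose groups stand apart was not computed, so standing apart describes these libraries only.

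REL encodes c-Rel, a transactivating subunit best known from lymphoid cells (chr2:60881491-60931612 in the GRCh38 annotation of GENCODE). It was 86.9, 85.1 and 79.2 CPM in the vehicle libraries of QGP-1 cells and 108, 116 and 112 CPM in the DOX libraries. In BON-1 cells the vehicle libraries were at 69.5, 67.4 and 67.5 CPM and the DOX libraries at 90.2, 91.9 and 103 CPM. Every DOX library of a line was above every vehicle library of that line. The rise was 1.34-fold in QGP-1 cells (log2 0.42, SE 0.070, adjusted p = 0.000406) and 1.39-fold in BON-1 cells (log2 0.48, SE 0.082, adjusted p = 3.75e-05). The responses differed by 0.07 on the log2 scale (95% interval -0.16 to 0.29, adjusted p = 0.742 for the interaction of line and DOX). REL was the only member called in the same direction in both lines, against 14.1% of the 13535 genes tested in both.

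NFKB1 encodes the precursor of a DNA-binding subunit that lacks a transactivation domain, and its unprocessed form acts as an I-kB (chr4:102501330-102617302). In QGP-1 cells it was 28.9, 30.2 and 26.4 CPM with vehicle and 40.3, 38.3 and 33.0 CPM with DOX. The groups did not overlap, and the rise was 1.30-fold (log2 0.38, SE 0.097, adjusted p = 0.00727). In BON-1 cells, NFKB1 started from 53.6, 47.0 and 51.3 CPM and stood at 55.8, 53.7 and 58.3 CPM with DOX. These groups did not overlap either, but the log2 difference of 0.14 (95% interval -0.04 to 0.32, adjusted p = 0.221) did not pass the test. The difference between the lines was -0.23 (BON-1 minus QGP-1, 95% interval -0.51 to 0.05, adjusted p = 0.264).

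RELA encodes p65, the transactivating subunit of the canonical dimer (chr11:65653599-65663090, minus strand). In BON-1 cells it was 42.9, 36.6 and 30.4 CPM with vehicle and 29.0, 29.7 and 26.9 CPM with DOX. The vehicle libraries were spread over a wider range than the DOX libraries, and the lowest of them lay just above the highest DOX library. The fall was 1.29-fold (log2 -0.37, SE 0.113, adjusted p = 0.0127). Without replicate 1 of the vehicle group, the highest of the 3, the value was -0.24 and the call was lost (adjusted p = 0.138, the highest among the alternatives computed on counts, which ran from 0.00196). In QGP-1 cells RELA was 57.9, 52.5 and 50.8 CPM with vehicle and 48.3, 47.4 and 42.5 CPM with DOX. The groups did not overlap, and the log2 difference of -0.22 (95% interval -0.40 to -0.04) missed the threshold (adjusted p = 0.0573). It passed in 3 of 12 alternatives on counts, whose adjusted p ran from 0.0312 to 0.220. The difference between the lines was -0.14 (95% interval -0.45 to 0.18, adjusted p = 0.599).

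The subunits of the non-canonical arm, NFKB2 (chr10:102394110-102402524) and its partner RELB (chr19:45001461-45038192), were not called in either line. NFKB2 was 6.71, 4.63 and 6.55 CPM with vehicle and 5.70, 4.59 and 4.0 CPM with DOX in QGP-1 cells, and 17.6, 14.2 and 13.2 CPM against 12.1, 17.3 and 14.3 CPM in BON-1 cells. The groups overlapped in both lines, with log2 differences of -0.32 (95% interval -0.73 to 0.08) and -0.05 (-0.35 to 0.26). RELB was a low-count gene, with 103, 108 and 82 reads against 129, 115 and 106 in QGP-1 cells. In BON-1 cells it had 22, 13 and 9 reads with vehicle and 11, 11 and 22 with DOX, and the 95% interval around its log2 estimate of 0.35 was wide there (-0.70 to 1.4).

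NFKBIA encodes I-kB alpha, the inhibitor that NF-kB resynthesizes most directly (chr14:35401079-35404749, minus strand). In QGP-1 cells it was 15, 15.4 and 17.4 CPM with vehicle and 23.8, 23.6 and 20.2 CPM with DOX. All DOX libraries were above all vehicle libraries. The rise of 1.41-fold was the largest among the called members in that line (log2 0.50, SE 0.106, adjusted p = 0.00228). In BON-1 cells the vehicle libraries were at 24.7, 26.4 and 20.2 CPM, and the DOX libraries lay inside that range at 25.3, 24.3 and 23.6 CPM. The log2 difference was 0.03 (95% interval -0.21 to 0.27, adjusted p = 0.858), and its sign changed when library size replaced TMM scaling (-0.014). The difference between the lines was -0.46 (SE 0.165, 95% interval -0.80 to -0.12) and missed the threshold (adjusted p = 0.0577). It passed in 6 of 17 alternatives, whose adjusted p ran from 0.0197 to 0.136.

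NFKBIE encodes I-kB epsilon, which retains RELA and REL dimers (chr6:44258166-44265788, minus strand). It had 71, 89 and 85 reads with vehicle and 90, 104 and 61 with DOX in QGP-1 cells (log2 0.07, 95% interval -0.53 to 0.67). In BON-1 cells it had 38, 27 and 17 reads with vehicle and 12, 9 and 11 with DOX, or 1.16 ± 0.204 and 0.599 ± 0.155 CPM (SD, n = 3). These groups did not overlap, but the difference did not pass the test (log2 -0.98, 95% interval -1.96 to 0.00038, adjusted p = 0.114).

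TNFAIP3 encodes A20, a ubiquitin-editing enzyme that shuts down signaling upstream of IKK (chr6:137867214-137883314). In QGP-1 cells it gave 24, 14 and 62 reads with vehicle and 67, 51 and 37 with DOX, with overlapping groups (log2 0.67, 95% interval -0.31 to 1.65, adjusted p = 0.280). In BON-1 cells it was 2.13, 2.79 and 2.61 CPM with vehicle and 3.79, 2.91 and 3.36 CPM with DOX. Those groups did not overlap, yet the log2 difference of 0.42 (95% interval -0.15 to 0.99, adjusted p = 0.258) did not pass.

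BIRC3 encodes cIAP2, a ubiquitin ligase that NF-kB induces and that protects cells from death receptor signals (chr11:102317484-102339403). It was 4.62, 4.04 and 4.33 CPM in the vehicle libraries of BON-1 cells and 8.28, 6.71 and 7.43 CPM in the DOX libraries. All DOX libraries were above all vehicle libraries, and the rise was 1.72-fold (log2 0.78, SE 0.199, adjusted p = 0.00287). In QGP-1 cells BIRC3 was 22.2, 21.5 and 22.1 CPM with vehicle and 20.4, 21.0 and 23.6 CPM with DOX. The DOX libraries there lay on both sides of the vehicle libraries (log2 -0.017, 95% interval -0.22 to 0.19, adjusted p = 0.913).

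BIRC3 was the only member whose response differed between the lines by the interaction test. The BON-1 log2 fold change exceeded that of QGP-1 by 0.81 (SE 0.183, 95% interval 0.43 to 1.18, adjusted p = 0.00333). It was 1 of 10 members called higher in the interaction, where 8.80% of 16598 genes tested were, and 0 were called lower, where 7.92% were. By an unadjusted p below 0.05 in edgeR, 1 member was lower (NFKBIA), and DESeq2 called that member at the adjusted threshold. All 17 alternatives called the BIRC3 difference, with an adjusted p of 0.000706 to 0.0175. With DOX, the BON-1 level of BIRC3 was still below every QGP-1 library.

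ICAM1 encodes an adhesion molecule and is a standard readout of NF-kB in endothelial and epithelial cells (chr19:10271093-10286615). It was scarce in QGP-1 cells, with 34, 28 and 41 reads with vehicle and 12, 21 and 11 with DOX. The groups did not overlap, at 0.788 ± 0.126 and 0.346 ± 0.162 CPM (SD, n = 3), but the log2 difference of -1.20 (SE 0.478, 95% interval -2.22 to -0.17) missed the threshold (adjusted p = 0.0668). It passed in 2 of 12 alternatives, whose adjusted p ran from 0.0268 to 0.202. In BON-1 cells ICAM1 was 2.13, 2.93 and 1.78 CPM with vehicle and 2.12, 2.29 and 1.83 CPM with DOX, and the DOX libraries lay inside the vehicle range (log2 -0.14, 95% interval -0.80 to 0.52).

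**Figure D2:**
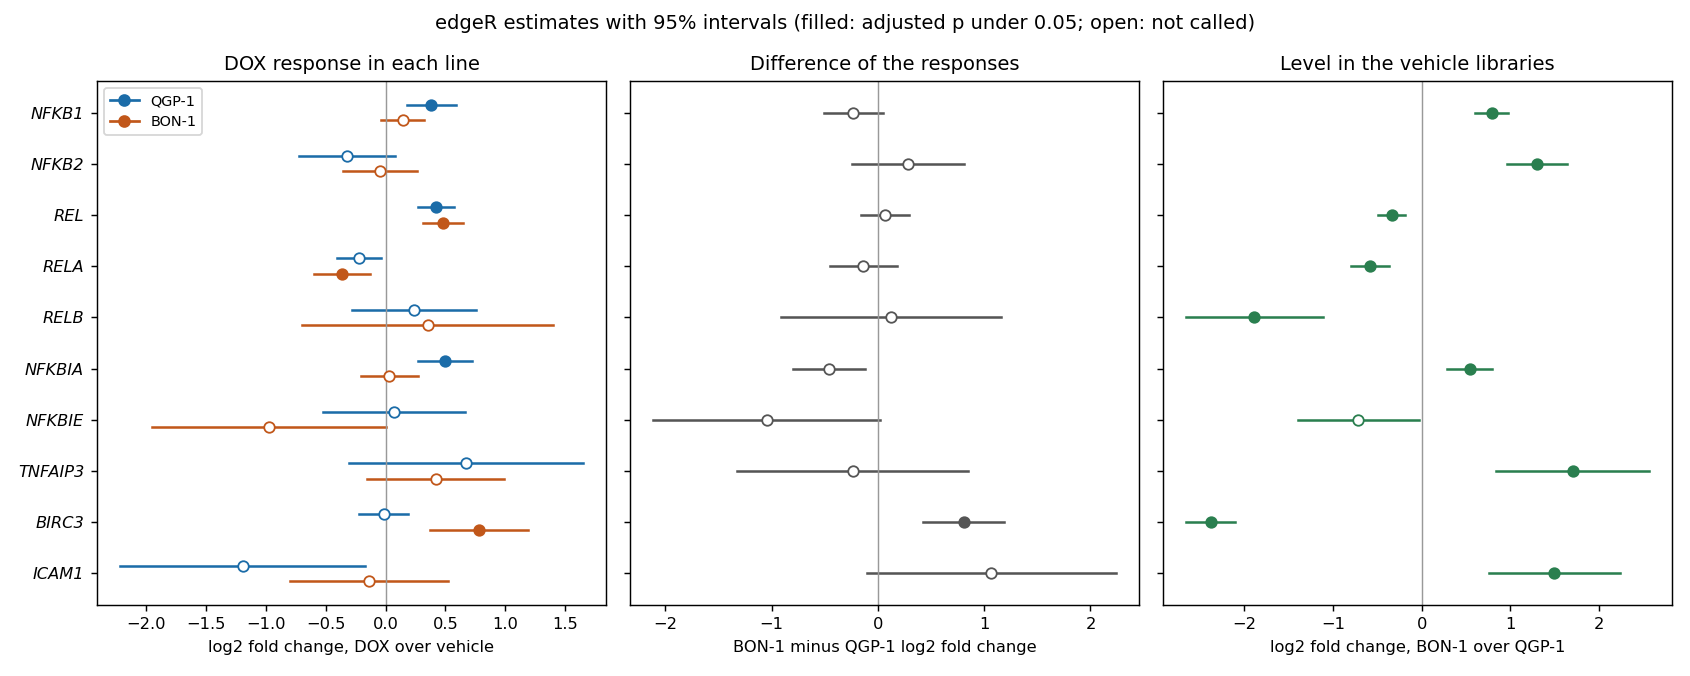
Log2 fold changes of the 10 genes with 95% intervals from edgeR (horizontal axes): DOX over vehicle in each line (left), the BON-1 response minus the QGP-1 response (middle) and BON-1 over QGP-1 in the vehicle libraries (right). Filled points passed an adjusted p of 0.05. REL is filled in both lines, BIRC3 alone is filled in the middle panel, and NFKBIE alone is open on the right.

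Counting bears on some of these values. GENCODE places exons of non-coding genes on the strand opposite to RELA (RELA-DT), TNFAIP3 (WAKMAR2), ICAM1 (LIMASI and ICAM4-AS1) and BIRC3, and a non-coding gene overlaps REL on the same strand. None of these has a row in the count tables. The libraries were made with a stranded kit, but whether the counting used the strand is not stated in the sources used here, and without it the reads of such pairs cannot be told apart. The annotation names no pseudogene after any of the 10 genes.

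Most members differed in level between the lines before DOX. In the vehicle libraries 9 of the 10 genes were called between BON-1 and QGP-1 cells, 5 of them higher in BON-1 and 4 lower, where 39.4% of 15835 genes tested were higher and 38.0% lower (77.5% called in all). Scaled over the libraries of both lines, NFKB1 was 29.0 ± 1.81 CPM in QGP-1 and 50.2 ± 2.92 CPM in BON-1 cells (SD, n = 3), a log2 difference of 0.79 (adjusted p = 9.42e-08). NFKB2 was 2.46-fold higher in BON-1 cells (6.08 ± 1.19 against 14.9 ± 2.14 CPM, log2 1.30), whereas its partner RELB was 3.69-fold lower (2.32 ± 0.551 against 0.613 ± 0.138 CPM, log2 -1.88). The transactivating subunits were lower in BON-1 cells as well, REL by 1.26-fold (85.3 ± 3.35 against 67.5 ± 0.520 CPM) and RELA by 1.5-fold (54.7 ± 3.33 against 36.3 ± 5.94 CPM).

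Among the feedback genes, NFKBIA was 1.45-fold (log2 0.54) and TNFAIP3 3.26-fold (log2 1.70) higher in BON-1 cells. Without QGP-1 vehicle replicate 3, the highest of its group, the TNFAIP3 difference was 2.36 on the log2 scale, and leaving out each library gave 1.34 to 2.36. NFKBIE was 1.91 ± 0.170 CPM in QGP-1 and 1.15 ± 0.195 CPM in BON-1 cells and was not called (log2 -0.71, 95% interval -1.4 to -0.03, adjusted p = 0.0540). The target genes went opposite ways, ICAM1 being 2.82-fold higher in BON-1 cells (0.803 ± 0.128 against 2.26 ± 0.596 CPM) and BIRC3 5.19-fold lower (22.3 ± 0.440 against 4.29 ± 0.248 CPM, log2 -2.38, adjusted p = 1.15e-12). BIRC3 thus had the widest gap between the lines among the 10 genes.

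Levels were compared between genes on the deposited TPM values, which are per length. In the vehicle libraries of QGP-1 cells, RELA came first at 9.56, 7.97 and 7.25 TPM. NFKBIA followed at 4.36 ± 0.144 TPM (SD, n = 3), then REL at 3.90 ± 0.464, NFKB1 at 2.46 ± 0.304, BIRC3 at 1.16 ± 0.0922 and NFKB2 at 0.582 ± 0.129 TPM. RELB (0.407 TPM), NFKBIE (0.288 TPM), ICAM1 (0.0937 TPM) and TNFAIP3 (0.0567 TPM) closed the order. The ranges over libraries overlapped for NFKBIA with REL, NFKB2 with RELB, RELB with NFKBIE, and ICAM1 with TNFAIP3. Within a library, the first 3 of these pairs kept their order in 3 of 3 libraries, at mean log2 ratios of 0.17 (SD 0.18), 0.54 (SD 0.56) and 0.46 (SD 0.30), and ICAM1 was above TNFAIP3 in 2 of 3.

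In BON-1 cells the order opened with NFKBIA at 13.7, 21.9 and 13.5 TPM, RELA at 13.3, 17.0 and 11.3 TPM, NFKB1 at 10.8 ± 1.45 TPM and REL at 7.89 ± 1.49 TPM. Their ranges over libraries overlapped, but this order held within 3 of 3 libraries, with a mean log2 ratio of 0.22 (SD 0.16) for NFKBIA over RELA, 0.35 (SD 0.24) for RELA over NFKB1 and 0.46 (SD 0.080) for NFKB1 over REL. NFKB2 followed without overlap at 3.60 ± 0.542 TPM. ICAM1 (0.691 TPM), BIRC3 (0.566 TPM), TNFAIP3 (0.502 TPM) and NFKBIE (0.441 TPM) overlapped in turn, each above the next in 2 of 3 libraries, and RELB came last at 0.267 TPM, below all libraries of NFKBIE. With DOX, NFKB1 stood second among the BON-1 means, and REL and RELA could not be ordered, with REL above RELA in 1 of 3 libraries (mean log2 ratio 0.013, SD 0.175). The mean of BIRC3 went from the seventh to the sixth place, while the first 5 places of QGP-1 cells stayed as they were.

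**Figure D3:**
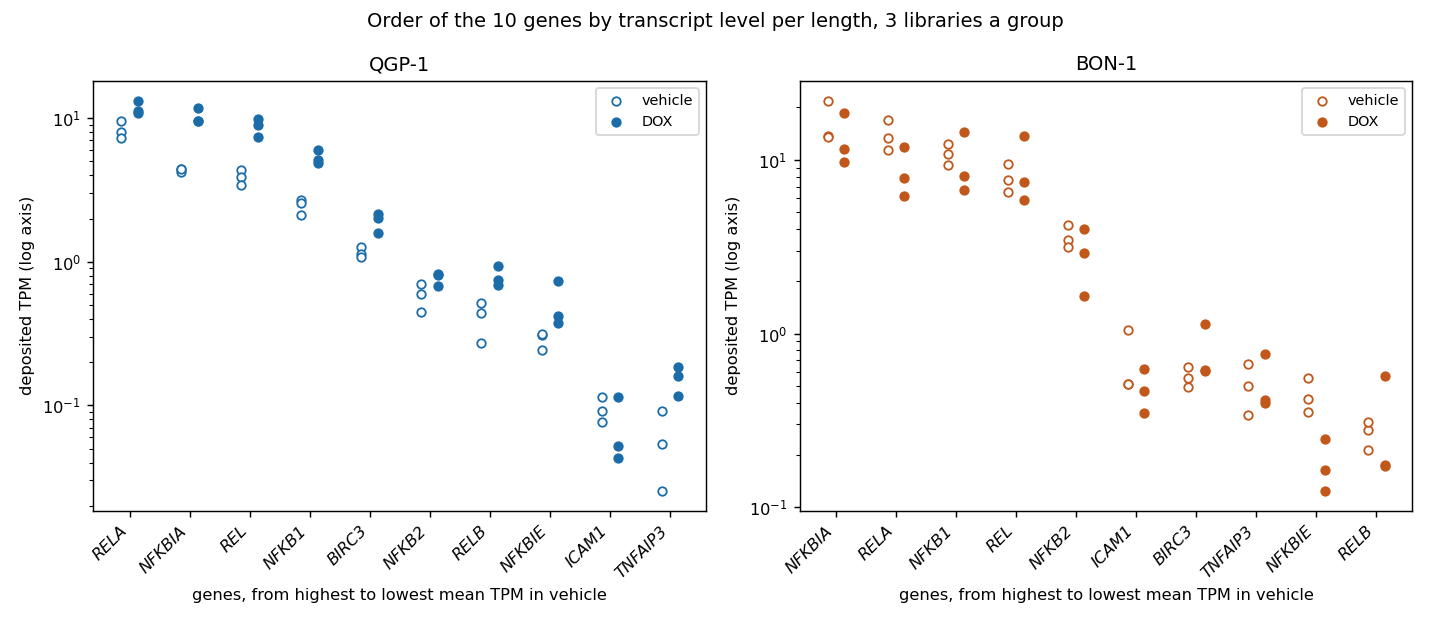
Deposited TPM of the 10 genes in each library (vertical log axis), ordered by their vehicle mean from highest to lowest in QGP-1 (left) and BON-1 cells (right). Open points are vehicle and filled points DOX libraries. RELA leads in the vehicle libraries of QGP-1 and NFKBIA in those of BON-1 cells.

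TPM values cannot be read across the treatment without a correction. RN7SK, RN7SL1 and RN7SL2, short and abundant non-coding RNAs, took 78.8–80.3% of all TPM in the vehicle libraries of QGP-1 cells and 71.2–75.4% in the DOX libraries, and 50.9–65.6% against 53.4–74.3% in BON-1 cells. As a share of counts they were only 5.4–6.4% against 3.3–4.5% in QGP-1 and 1.4–2.4% against 1.5–3.8% in BON-1 cells. The median log2 difference of all genes on log2(TPM + 1) was 0.59 in QGP-1 and -0.31 in BON-1 cells. Relative to that median, RELA stood at -0.13 and BIRC3 at -0.16 in QGP-1 cells, although both were positive before it was subtracted. With the 3 RNAs left out of the TPM total instead, RELA went from 40.6 ± 4.22 to 43.5 ± 2.98 there. BIRC3 went from 5.71 ± 0.231 to 7.07 ± 0.635 (SD, n = 3). The direction of these genes in TPM thus depended on the correction, and on counts they were at -0.22 and -0.017. In BON-1 cells REL stood at 0.42 and RELA at -0.34 relative to the median.

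Pairs of members ranged widely in how they moved together. The correlation of log2 CPM between 2 members, taken over the 12 libraries after centering each line, had a median of 0.00036 over the 45 pairs. The extremes were 0.78 for NFKB1 with REL and -0.74 for NFKB1 with ICAM1, and REL with RELA was at -0.73. These values share libraries and include the difference between vehicle and DOX, so they describe these libraries only. On the same scale, the genes most like NFKBIA among 9098 whose mean log2 CPM reached 3 in both lines were RC3H2 (r = 0.94), MAGI3, RIOK2, AMMECR1L and ATXN1L (r = 0.91 each), with n = 12 libraries.

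The surrounding pathway was described with 115 further genes in 4 lists, of which 74 could be tested in QGP-1 and 83 in BON-1 cells. In QGP-1 cells 17 were lower and 13 higher with DOX, or 40.5% called, with a median log2 fold change of -0.15. For BON-1 cells the numbers were 15 lower and 21 higher, or 43.4% called, with a median of 0.05. The share called among all genes was 35.0% in QGP-1 (17.7% lower, 17.3% higher) and 35.3% in BON-1 cells (18.3% lower, 17.0% higher). Both lines could test 72 of them: 5 were lower in both, 6 higher in both and 5 called in opposite directions, against 978, 931 and 364 of 13535 genes. Leaving out a library ended the call of MAP3K7, CARD10, RBCK1, IRAK4, TNIP1, TNFSF12, TNFRSF1A, PTGS2 or IRF1 in QGP-1 cells and of CARD10, IRAK4, NFKBIB, NFKBID, TLR1, TNFSF12, GADD45B or PLAU in BON-1 cells. The number lower in QGP-1 cells was 11 without vehicle replicate 1 or without DOX replicate 2.

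Receptors and ligands stood lowest in QGP-1 cells, with 7 of 13 lower, 1 higher and a median of -0.42. Over all genes tested in that line, 17.7% were lower and 17.3% higher. IL1R1, the signaling receptor of interleukin-1, was 10.9 ± 1.90 CPM with vehicle and 5.40 ± 0.494 CPM with DOX (SD, n = 3; log2 -1.01, adjusted p = 0.000198), and its co-receptor IL1RAP was lower by a log2 of 0.61. TLR1 was also lower there (log2 -0.98). In BON-1 cells 2 of 16 were lower and 5 higher with a median of 0.31, where 18.3% and 17.0% of all genes were. Both IL1R1 (log2 0.77, adjusted p = 0.00159) and TLR1 (log2 0.79) were higher in BON-1 cells, as was TNFSF11, the ligand RANKL (1.74). TNFRSF10B, a death receptor for TRAIL, was likewise lower in QGP-1 (log2 -0.37) and higher in BON-1 cells (log2 0.45). TNFRSF1A, the main TNF receptor, was lower in both (log2 -0.42 and -0.32), as was TNFSF12 (-0.46 and -1.06), and TNFRSF21 was higher in both (0.47 and 0.60).

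Kinases and adaptors moved in both directions within each line. In QGP-1 cells 6 of 27 were lower and 7 higher, where 17.7% and 17.3% of all genes were. For BON-1 cells the numbers were 6 of 30 lower and 8 higher, where 18.3% and 17.0% of all genes were. MYD88, the adaptor of interleukin-1 and Toll-like receptors, rose from 52.0 ± 2.33 to 77.1 ± 3.14 CPM in QGP-1 and from 66.9 ± 6.67 to 99.4 ± 4.88 CPM in BON-1 cells (log2 0.57 in each, adjusted p = 6.69e-05 and 6.81e-06). The ubiquitin ligase TRAF6 (0.35 and 0.51) and FBXW11, which marks I-kB for destruction (0.37 and 0.29), were higher in both lines on the log2 scale. MAP3K7, the kinase TAK1 (-0.34 and -0.47), CARD10 (-0.66 and -0.35) and RBCK1, a part of the linear ubiquitin ligase (-0.25 and -0.32), were lower in both. TRAF1, an adaptor that NF-kB also induces, was lower in QGP-1 cells (log2 -1.06), and BTRC, the homolog of FBXW11, was higher there (0.46). In BON-1 cells IRAK2 (0.89) was higher, and TRAF3 (-0.42), a brake on the non-canonical arm, and RNF31 (-0.36) were lower. IRAK4 was lower in QGP-1 (-0.27) and higher in BON-1 cells (0.26).

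Among inhibitors and deubiquitinases, 1 of 15 was lower and 3 higher in QGP-1 cells, where 17.7% and 17.3% of all genes were. For BON-1 cells the numbers were 4 of 15 lower and 2 higher, where 18.3% and 17.0% of all genes were. CYLD, which removes the ubiquitin chains that carry the signal, was higher in both lines (log2 0.28 and 0.79), as was NFKBIZ (0.30 and 0.49), a nuclear I-kB that NF-kB induces. OTUD7B was higher in QGP-1 cells (0.45). NFKBIB, which encodes I-kB beta (-0.38), NFKBID (-0.51) and NLRC5 (-0.65) were lower in BON-1 cells, and TNIP1, a partner of A20, was lower in QGP-1 cells (-0.30).

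Of the other target genes, 3 of 19 were lower and 2 higher in QGP-1 cells, where 17.7% and 17.3% of all genes were. LIF, a cytokine of the interleukin-6 family, fell from 124 ± 10.7 to 74.7 ± 8.37 CPM (log2 -0.73, adjusted p = 4.11e-05), SDC4 (-0.70) and PTGS2 (-0.37) were lower, and IRF1 (0.53) and CFLAR (0.32) were higher. In BON-1 cells 3 of 22 were lower and 6 higher, where 18.3% and 17.0% of all genes were. The chemokine CXCL8 rose from 144 ± 23 to 266 ± 15.2 CPM (log2 0.89, adjusted p = 1.22e-08), with GADD45B (0.70), CXCL1 (0.68) and LIF (0.48) also higher. PSMB9 (-1.13) and TAP1 (-0.86), which serve antigen presentation, and PLAU (-0.57) were lower there.

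**Figure D4:**
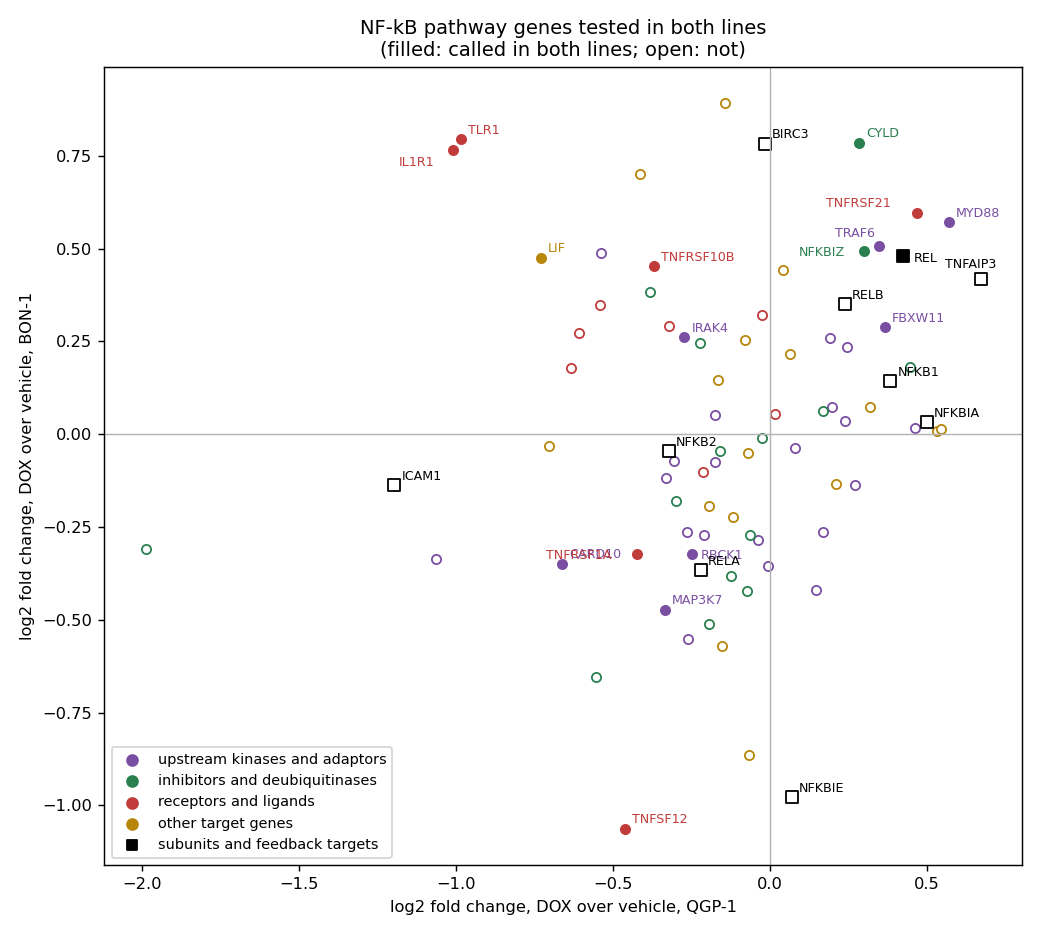
Log2 fold change with DOX in QGP-1 (horizontal) against BON-1 cells (vertical) for NF-kB pathway genes tested in both lines, colored by list, with the 10 subunits and feedback targets as black squares. Filled marks were called in both lines. REL is the only filled square, and IL1R1, TLR1, LIF, TNFRSF10B and IRAK4 are filled on the upper left, lower in QGP-1 and higher in BON-1 cells.

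In the vehicle libraries, 24 of 87 genes of these lists were lower and 44 higher in BON-1 cells, or 78.2% called, which is close to the 77.5% of all genes. Among the targets, LIF was 126 ± 11 CPM in QGP-1 and 13.5 ± 1.27 CPM in BON-1 cells, whereas TNFAIP2 was 0.0472 ± 0.0418 CPM in QGP-1 and 21.1 ± 1.86 CPM in BON-1 cells and CXCL1 was 0.0138 ± 0.0239 CPM in QGP-1 and 46.0 ± 2.69 CPM in BON-1 cells. PTGS2, which encodes the cyclooxygenase COX-2, was 17.2 ± 1.69 CPM in QGP-1 cells and had 0 reads in all vehicle libraries of BON-1 cells, which allows up to 0.169 CPM in the shallowest of them (3 counts, counting error only). Among the inhibitors, CYLD (log2 -1.69) and TNIP1 (-1.33) were lower in BON-1 cells, and NLRC5 (5.85) and ZC3H12A (2.61), an RNase that degrades cytokine transcripts, were higher. MALT1, the protease that cleaves A20 in lymphocytes, was 60.5 ± 1.75 CPM in QGP-1 and 21.8 ± 1.62 CPM in BON-1 cells, and TAB3, a partner of TAK1, was 98.8 ± 3.85 CPM in QGP-1 and 38.7 ± 2.28 CPM in BON-1 cells. TLR4, the receptor for bacterial lipopolysaccharide, was 0.0285 ± 0.0313 CPM in QGP-1 and 6.42 ± 1.23 CPM in BON-1 cells, and IL1R1 was 11.1 ± 1.84 CPM in QGP-1 and 6.40 ± 0.680 CPM in BON-1 cells.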

How the data were processed

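RNA was taken from both tet-MUC1shRNA lines after 7 days of vehicle or DOX, with 3 libraries in each of 4 groups. Per the study's methods, stranded mRNA libraries were aligned to GRCh38 with STAR, and the counting tool, its use of strand and of multimapping reads are not given in the sources used here. The deposited values are raw read counts per gene symbol, in a table for each line, and TPM values that the authors made with gene lengths not given here. The libraries held 15981954 to 50525926 counts. The limit given for a gene without reads covers counting error only. The 95% intervals come from the edgeR fit and include the estimated spread between libraries.

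Counts were tested across all genes with edgeR 4.0.16 (R 4.3.3): filterByExpr, TMM scaling, the quasi-likelihood test and Benjamini-Hochberg adjustment, with a gene called at an adjusted p below 0.05. DOX was compared with vehicle within each line. All 12 libraries entered the interaction of line and DOX, and the 6 vehicle libraries the comparison of lines. SE is the log2 fold change divided by the square root of F. An exact permutation test of 3 against 3 cannot give a two-sided p below 0.1 and was not used. If the libraries were not separate cultures, p-values measure technical spread only. The study tested counts with DESeq2, which was run here as an alternative (1.42.0), with library-size scaling, no filter, at least 10 counts in every library, a replicate block, all libraries in 1 fit, each library left out, and limma 3.58.1 on log2(TPM + 1), leaving out genes whose mean TPM was under 1. Scripts were tested on simulated counts.

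The 10 members and the 4 pathway lists (115 genes) and marker lists were chosen with earlier results of these data known. Named pathway genes are, per list, up to 3 called genes with the largest change in each direction in each line, those called in both lines, and the 2 largest differences in each direction between the lines' vehicle libraries. The genes most like NFKBIA are the 5 with the highest Pearson correlation. Positions come from GENCODE 44 and promoters from RefSeq (GRCh38.p14). TPM levels were compared only within a table. Some genes of these lists are counted but not reported here by name.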

Additional observations from a re-analysis of the deposited data

Results flagged for a closer look

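The response to DOX differed between BON-1 and QGP-1 cells, by the interaction term of edgeR's quasi-likelihood test with Benjamini-Hochberg adjustment, for BIRC3 and for 18 of the 89 pathway genes tested (20.2%), where 16.7% of all genes were called. The 14 of them that the rule for named genes picked are given here, and the other 4, named after their values were seen, were CHUK (-0.40), IRAK1 (-0.42), TLR6 (0.90) and SOD2 (0.41). The BIRC3 response was higher in BON-1 cells by 0.81 on the log2 scale (adjusted p = 0.00333).

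Among receptors and ligands, the BON-1 response exceeded the QGP-1 response by 1.79 for TLR1 (adjusted p = 0.00215), 1.79 for IL1R1 (adjusted p = 1.97e-05), 0.89 for IL1RAP (adjusted p = 0.000821) and 0.83 for TNFRSF10B (adjusted p = 7.63e-05). Of these, IL1R1, TLR1 and TNFRSF10B were called in opposite directions in the lines. Among target genes the difference was 1.22 for LIF (adjusted p = 2.42e-06), 1.12 for GADD45B (adjusted p = 0.0168), 1.06 for CXCL8 (adjusted p = 0.00250) and 0.68 for SDC4 (adjusted p = 0.00306).

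The antigen presentation genes went the other way, at -2.91 for PSMB9 (adjusted p = 0.000761) and -0.79 for TAP1 (adjusted p = 0.0187). PSMB9 did not pass the filter on low counts in QGP-1 cells alone. It was at 0.0802 ± 0.0464 CPM with vehicle and 0.271 ± 0.104 CPM with DOX there (SD, n = 3). Its BON-1 change was -1.13, so the size of its difference rests on QGP-1 values near the floor. TAP1 lost its call without QGP-1 vehicle replicate 2 or 3. Among kinases, adaptors and inhibitors the difference was 0.55 for IRAK4 (adjusted p = 0.00933), 0.51 for CYLD (adjusted p = 0.00330), -0.56 for TRAF3 (adjusted p = 0.00898) and -0.44 for BTRC (adjusted p = 0.0174). CYLD was higher with DOX in both lines, by 0.28 in QGP-1 and 0.79 in BON-1 cells.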

How the results depend on the processing

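Of 525 values of the 10 genes recomputed on counts, 494 kept their direction and their side of the threshold, 13 gained a call, 1 lost it, and 17 that were never called changed sign. The members called lower in QGP-1 cells numbered 1 in place of 0 with at least 10 counts in every library or with all 12 libraries in 1 fit (ICAM1 both times), and 1 with the replicate block (RELA). In the interaction, 1 member was called lower with DESeq2, library size or at least 10 counts in every library, which was NFKBIA each time. Library size also turned NFKBIA in BON-1 cells (-0.014) and the REL interaction (-0.0041), and split the 2946 interaction calls into 1823 lower and 1123 higher, against 1315 and 1461 with TMM. It split the BON-1 calls into 3149 lower and 2030 higher, against 2677 and 2488 with TMM.

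On log2(TPM + 1), 9257 genes were called in QGP-1 cells. Of those that passed the TPM filter, 5 of 5 members and 42 of 51 pathway genes were higher and 0 pathway genes lower. RELA (0.47), BIRC3 (0.43), MAP3K7 (0.30), TNIP1 (0.34), LIF (0.0054), SDC4 (0.0076), PTGS2 (0.23), IRAK4 (0.36), RBCK1 (0.39), TNFSF12 (0.16), TNFRSF1A (0.24) and TNFRSF10B (0.25) changed sign there, and all were negative relative to the all-gene median. In BON-1 cells 258 genes were called by limma, with 0 of 5 members and 0 of 71 pathway genes tested in either direction. On counts, edgeR called 3 of 10 members. BIRC3, which is 1 of these 3, did not pass the TPM filter in BON-1 cells, so that limma did not test it there. By an unadjusted p below 0.05, limma had 0 members in either direction and 5 lower and 0 higher pathway genes. NFKB1 (-0.19), NFKBIA (-0.30), IRAK4 (-0.085) and FBXW11 (-0.072) changed sign and were positive relative to the median.

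Leaving out each library gave 3971 to 5258 called genes in QGP-1 cells, 0 to 1 members lower and 11 to 14 pathway genes lower. It gave 4134 to 4773 called genes in BON-1 cells and 0 to 1 members lower, and 0 to 1 members lower in the interaction. The 1 lower member was RELA in QGP-1 cells (without vehicle replicate 3 or DOX replicate 1) and NFKBIA in the interaction (without BON-1 vehicle replicate 3, QGP-1 vehicle replicate 3 or QGP-1 DOX replicate 3). RELA in BON-1 cells lost its call without vehicle replicate 1. NFKBIE was called between the lines without BON-1 vehicle replicate 1 (-0.87, adjusted p = 0.0399, within a range of 0.0342 to 0.136 over its alternatives). Uncalled values that changed sign ran from -0.084 to 0.033 for BIRC3 and from -0.19 to 0.26 for NFKBIE in QGP-1 cells. In BON-1 cells they ran from -0.29 to 0.074 for ICAM1, from -0.20 to 0.087 for NFKB2, from -0.078 to 0.11 for NFKBIA and from -2.6e-05 to 0.56 for RELB. In the interaction they ran from -0.28 to 0.38 for MUC1, from -0.015 to 0.10 for REL, from -0.24 to 0.32 for RELB and from -0.89 to 0.11 for TNFAIP3.

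Whether same-numbered libraries were paired is not given in the sources used here, and the main fits left the numbers out. Correlations of same-numbered vehicle and DOX libraries were -0.07, 0.12 and 0.09 in QGP-1 cells and -0.06, -0.04 and 0.09 in BON-1 cells. Those of differently numbered libraries ran from -0.28 to 0.18 in QGP-1 and from -0.096 to 0.12 in BON-1 cells. With 3 libraries a group, these values cannot settle whether the numbers pair the samples. With the replicate block 5487 genes were called in QGP-1 and 5064 in BON-1 cells, against 5286 and 5165 without it. Ordered by TPM in the DOX libraries, QGP-1 ranks became 7 for NFKB2, 6 for RELB, 9 for TNFAIP3 and 10 for ICAM1. BON-1 ranks became 2 for NFKB1, 3 for REL, 4 for RELA, 6 for BIRC3, 7 for TNFAIP3, 8 for ICAM1, 9 for RELB and 10 for NFKBIE. The cause of these changes was not tested. Low counts limit RELB, NFKBIE, TNFAIP3 and ICAM1 most.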
